A study of Mus with 8 samples.

Results

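The data described here come from RAW264 cells, a macrophage-like cell line of mouse, that were pretreated with BTEE, an ethanol extract of the green microalga Botryococcus terribilis, and then stimulated with lipopolysaccharide (LPS). The comparison was made within BTEE-treated cells, between 2 arrays of cells with LPS for 17 h and 2 arrays of cells with LPS for 6 h, which together are 4 of the 8 arrays of the series. All 4 samples had BTEE at 0.2 mg/mL for 24 h, the highest dose of the study, before LPS at 1 ng/mL was added, so that both groups share the cell line, the extract and the pretreatment and differ in the time with LPS. The other 4 arrays hold cells given the same LPS for the same times without BTEE, 2 at each time. They serve here to set the time change with BTEE beside that without it, and they enter the common estimate of the spread. The arrays start at 6 h and hold no cells without LPS, so that the time with LPS cannot be told apart from the time in culture or the longer exposure to the extract. Nothing in the labels tells whether the duplicates were grown apart, and p-values therefore measure only the spread between these arrays, which may be technical. For lower doses of BTEE than that of these arrays, the paper reports no significant cytotoxicity. It makes no such statement for this highest dose, and whether toxicity contributed to the changes was not tested. The comparison asks how the transcripts of extract-treated macrophages moved between the early and the late phase of the LPS response.

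LPS is sensed on macrophages by Toll-like receptor 4, which signals through the adaptors MyD88 and TRIF. The early phase brings immediate early transcription factors, NF-kB targets, chemokines and cytokines, and, through TRIF and autocrine type I interferon, the interferon-stimulated genes. Feedback inhibitors such as IkappaB proteins, A20, SOCS proteins and dual specificity phosphatases are induced along with them, and the late phase combines the decay of the first transcripts with metabolic and stress programs. RAW264 cells also divide in culture, so that their arrays carry the transcripts of the cell cycle.

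RNA was measured on Clariom S mouse arrays, whose values were deposited as log2 signals, on which a step of 1 is a change of 2-fold. Each of 21154 gene symbols was represented by 1 probe set. The 2 arrays of a group correlated across symbols with r = 0.9985 at 6 h and 0.9984 at 17 h, whereas arrays of the 2 times correlated with r between 0.9795 and 0.9797. The median distance between the 2 arrays of a group was 0.10 at 6 h and 0.11 at 17 h on the log2 scale, and that between the means of the 2 times was 0.30. The 8 macrophage markers Adgre1, Csf1r, Cd68, Itgam, Fcgr1, Cd14, Lyz2 and Spi1 had group means between 11.06 and 18.11. Of 63 markers of B, T and NK cells, neutrophils, fibroblasts, epithelial, endothelial, dendritic and mast cells, 3 (Cd4, Fcer2a and Siglech) reached a mean signal of 6 and none of these 3 was called. Their summed linear signal was 1431 and 1404 at 6 h and 1407 and 1375 at 17 h, and 2 of the 63 were called higher and 4 lower.

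A symbol was called when limma's adjusted p was under 0.05 over all symbols and the means of the 2 times differed by more than 1.5-fold. By this rule 2563 symbols were higher at 17 h (12.1% of all symbols) and 2714 were lower (12.8%). Among the 9699 symbols with a mean signal of at least 6 in the higher of the 2 BTEE groups, 20.6% were called higher and 22.6% lower, and these shares are the closer background for lists of expressed genes. The median change of a called symbol was 1.87-fold for the higher and 1.92-fold for the lower ones, while 209 rose and 286 fell by more than 4-fold. A total of 181 symbols rose from below a signal of 6 to above it, and 236 fell below it. The 1454 sensory receptor genes, whose known transcripts are mostly those of sensory neurons and which had a median signal of 3.62, were called in 10.8% of cases, but only 1.17% of them passed with a change above 2-fold, against 10.8% of all symbols. Of the 11455 symbols with a mean signal below 6 in both BTEE groups, 9.46% were called, so that the receptor genes were called about as often as other weak symbols. Every gene named here as changed was measured with a standard error between 0.07 and 0.30 and had an adjusted p of at most 0.0448, the value of Pank1. Its arrays of the 2 times did not overlap, which also held for all 2563 higher and 2714 lower symbols. Adding the excess spread of the sensory receptor genes to every standard error, a step chosen after the data were seen, left 328 higher and 431 lower symbols, each with a change of at least 1.65 on the log2 scale.

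The 15 largest falls took in interferon-induced genes, chemokine genes and genes of other roles. Cxcl10, a ligand of the T cell chemokine receptor CXCR3 (GRCm38, chromosome 5, 92346638 to 92348889), had log2 signals of 17.04 and 17.08 at 6 h and 10.38 and 10.40 at 17 h, and fell by 6.67 (SE 0.08), or 102-fold. The arrays of the 2 times were far apart, and in these bulk samples a lower level in every cell and fewer cells with the transcript cannot be told apart. Cmpk2, a mitochondrial nucleotide kinase induced by interferon, went from 15.69 and 15.66 to 9.86 and 9.80, and Rsad2, the antiviral enzyme viperin, from 14.37 and 14.32 to 8.98 and 9.01. The fractalkine receptor Cx3cr1 had 12.74 and 12.70 at 6 h and 6.85 and 7.05 at 17 h and was thus only weakly expressed at the later time. Rgs16, which speeds the shut-off of G proteins, fell by 5.47 from 12.79 and 12.88, and Gpr84, a receptor for medium-chain fatty acids, fell by 4.77 from 15.07 and 14.98. Pdcd1, the inhibitory receptor PD-1, was at 9.43 and 9.45 at 6 h and at 4.42 and 4.54 at 17 h, a level below the median of the arrays. Nfkbid, the nuclear inhibitor IkappaBNS, fell by 4.62, the scaffold protein gene Themis2 by 5.04 and the transcription factor Klf10 by 4.69.

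The 15 largest rises were those of genes with diverse roles, and several began from a signal below 6, near the background of the arrays, where the size of a change is uncertain and no fold is given. Slamf7, a surface receptor of the SLAM family (chromosome 1, 171632403 to 171653037), had log2 signals of 4.92 and 4.74 at 6 h and 11.07 and 11.01 at 17 h, and its measured values rose by 6.21 (SE 0.12) from 6 h signals below the median of the arrays. Aqp9, a channel for water and glycerol, went from 5.75 and 6.06 to 11.91 and 11.84. Cxcr4, the receptor of the chemokine CXCL12, stood at 4.68 and 4.83 at 6 h and at 10.35 and 10.26 at 17 h. These 3 genes had signals of about 6 or less on both 6 h arrays and above 10 on both 17 h arrays. Ndrg1, a gene induced by hypoxia and other stresses, rose by 5.95 from 8.05 and 8.07, and Plk2, a polo-like kinase, rose by 5.58 from 9.52 and 9.61 to 15.16 and 15.14. Slc40a1, which encodes the iron exporter ferroportin, went from 5.33 and 5.32 to 9.78 and 9.85. The other genes among the 15 largest rises, beside Trib3 and Aldh1l2 of the integrated stress response, were Crebrf (5.21), which encodes a regulator of CREB3, Lhfpl2 (5.08), Klhl24 (4.98), the gamma-secretase subunit Aph1c (4.93), the muscle isoform of a cytochrome c oxidase subunit Cox6a2 (4.75), Ypel3 (4.64) and Hspa4l (4.39), which encodes a chaperone of the HSP110 family. All 15 largest rises and all 15 largest falls were also called, in the same direction, between the control arrays of the 2 times.

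**Figure D1:**
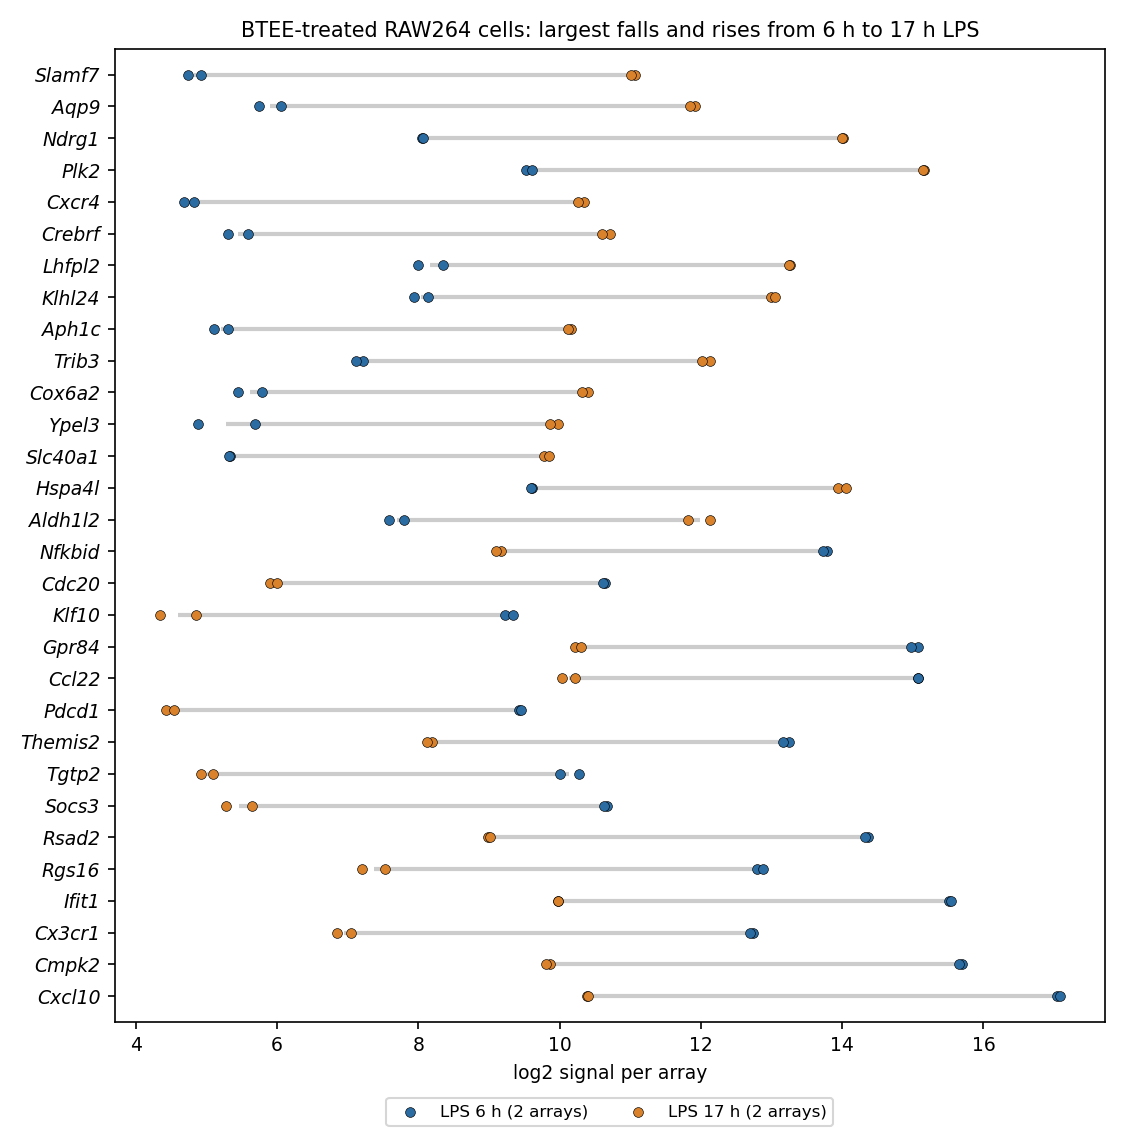
Log2 signal on each array of BTEE-treated RAW264 cells for the 15 symbols with the largest rise and the 15 with the largest fall from 6 h (blue) to 17 h (orange) of LPS, 2 arrays per time, with grey lines between the group means. The 30 genes were chosen among called symbols whose arrays of the 2 times do not overlap. The 6 h points of the rising genes lie between 4.68 (Cxcr4) and 9.61 (Plk2).

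Interferon-stimulated genes fell as a group. Of 81 measured genes in 3 lists, 60 were lower at 17 h, 2 were higher and 19 were not called, with a median change of -1.51 against 0.00 over all symbols, and 34 of them fell by more than 4-fold. With the widened standard errors, 39 stayed lower and none was higher. The fall was partial for most, since 54 of the 60 kept a mean signal of at least 6 at 17 h.

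The IFIT genes, which encode RNA-binding antiviral proteins, lie side by side on chromosome 19 (34550550 to 34662981), and all 6 measured members of this cluster fell, with a median of -4.0. Ifit1 went from 15.51 and 15.54 to 9.97 and 9.97, a fall of 47-fold. Ifit3 had 16.47 and 16.38 at 6 h and 12.35 and 12.38 at 17 h, and its close copy Ifit3b, which may share probes with it, had 15.61 and 15.59 at 6 h and 11.37 and 11.44 at 17 h. Both thus lost more than 4 log2 units and still had signals above 11 at 17 h. Ifit2 fell by 3.95, the double-stranded RNA-activated kinase Eif2ak2 by 3.69 and the OAS-like gene Oasl1 by 3.60. In the list of IFIT, OAS and RNA sensor genes as a whole, 15 of 21 were lower and 0 higher, and the oligoadenylate synthetase Oas1a, with a change of 0.10, had the highest value. Ifit1bl1, a less studied member of the chromosome 19 cluster, fell by 2.52.

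Of the interferon-inducible GTPases, which attack vacuoles that hold pathogens, 12 of 13 were lower, with a median of -2.85. Tgtp2, whose near-identical copy Tgtp1 may share its probes, had log2 signals of 10.27 and 10.00 at 6 h and 5.09 and 4.92 at 17 h and Igtp of 12.83 and 12.89 at 6 h and 8.30 and 8.24 at 17 h. Irgm2 fell by 4.07, Gbp7 by 3.26, Gbp3 by 3.13 and Gbp2 by 3.04, the last 3 being neighbours on chromosome 3. The exception was Gbp8, which rose by 0.82 from a weak signal of 5.90 and 5.50 to 6.52 and 6.52. Of 47 other interferon-stimulated genes, 33 were lower and 1 was higher. The dynamin-like antiviral GTPase Mx1 went from 13.15 and 13.11 to 9.0 and 8.94, the Fc receptor and ubiquitin ligase Trim21 fell by 4.13 and Parp14, a mono-ADP-ribosyltransferase, by 3.92. The virus-tethering protein gene Bst2 was the 1 that rose, by 0.60, from 12.58 and 12.40 to 13.07 and 13.11, a change that fell under the 1.5-fold threshold when replicate 2 of either time was left out (0.58 and 0.51).

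The upstream regulators of these genes moved in both directions, as expressed symbols did in general (22.6% lower and 20.6% higher). Irf1 had log2 signals of 10.61 and 10.81 at 6 h and 7.16 and 7.32 at 17 h and Irf2 of 11.43 and 11.35 at 6 h and 9.19 and 9.10 at 17 h, and both fell. Irf7, which amplifies the interferon response, rose by 1.00 from an already high 15.03 and 15.04 to 16.01 and 16.06, while Irf4 rose by 1.62 to 6.06 and 5.88. In all, 4 of 11 interferon regulatory factor genes were lower and 2 higher. Among 20 genes of JAK kinases, STATs and SOCS proteins, 6 were lower and 3 higher. Stat2, a partner in the interferon-activated transcription complex, fell by 2.92 from 13.36 and 13.36 to 10.47 and 10.42. Socs3, a feedback inhibitor of cytokine receptors, went from 10.67 and 10.63 to 5.28 and 5.64, the latter near background, whereas the kinase gene Jak1 rose by 0.97.

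**Figure D2:**
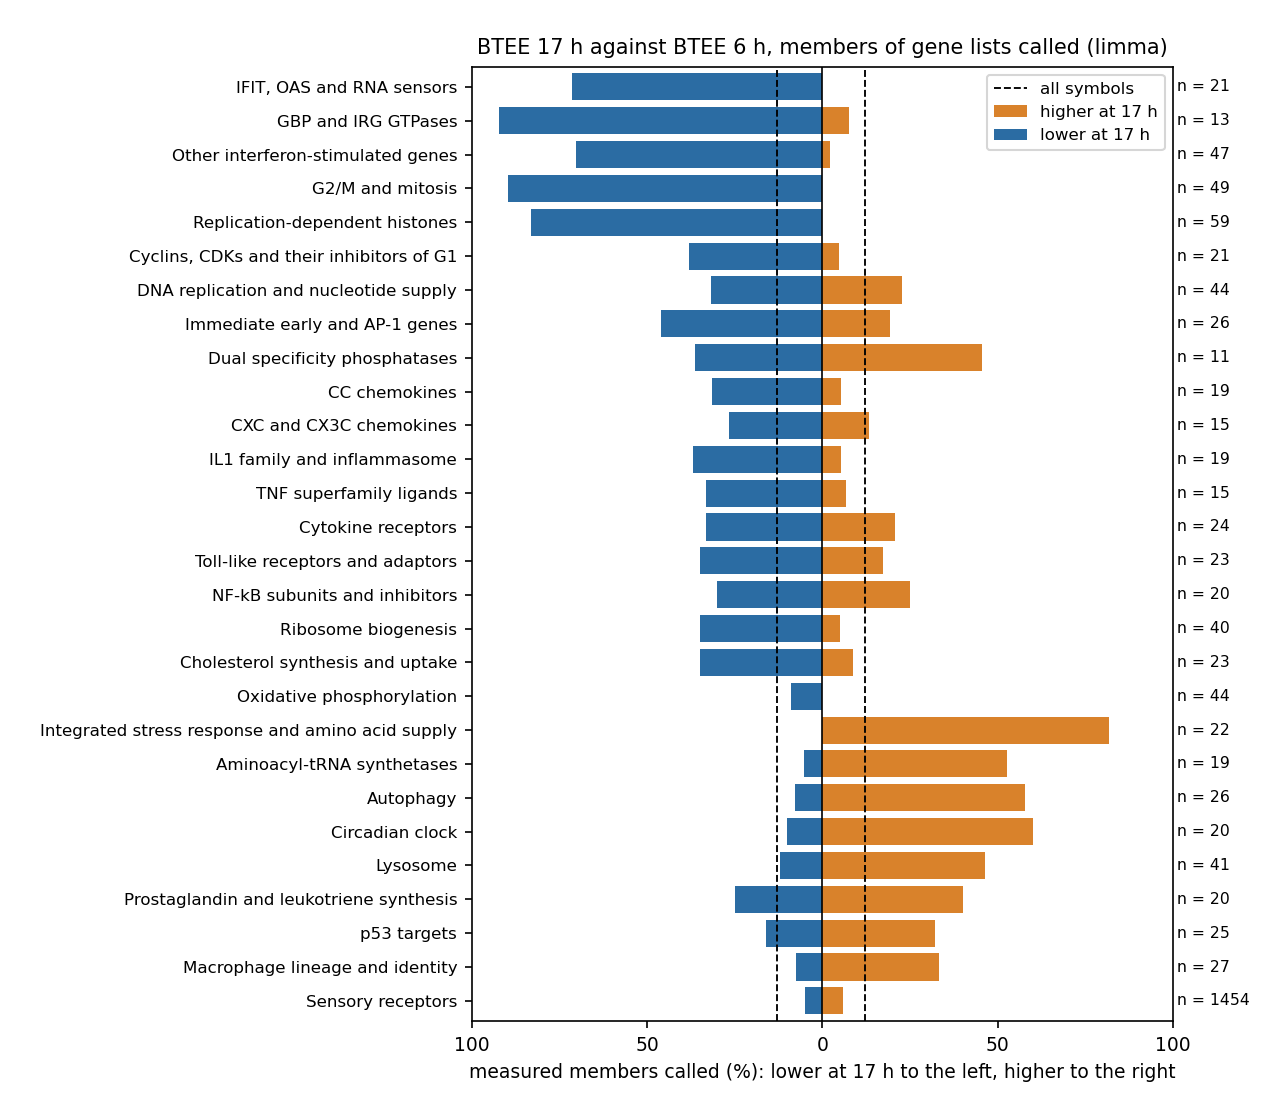
Share of the measured members of 28 gene lists that limma called lower (blue, to the left) or higher (orange, to the right) at 17 h than at 6 h in BTEE-treated cells, with the number of measured members at the right. The dashed lines mark the shares over all symbols, 12.8% lower and 12.1% higher. Lists beyond the line include the interferon-stimulated, mitosis and histone lists on the left. On the right they include the integrated stress response, tRNA synthetase, autophagy and clock lists. Many other lists also pass a line, so that passing it does not set these lists apart. Expressed symbols, the closer background, had shares of 22.6% lower and 20.6% higher.

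Most chemokine genes that changed were lower at 17 h. Ccl22, a ligand of CCR4, had log2 signals of 15.08 and 15.08 at 6 h and 10.22 and 10.04 at 17 h, and Ccl17, the other CCR4 ligand, of 10.62 and 10.08 at 6 h and 7.41 and 7.37 at 17 h. The CXCR3 ligand Cxcl11 fell by 3.85 from 11.66 and 11.57, and Cxcl14 by 3.90 from 9.79 and 9.96. The falls of the monocyte chemokine Ccl2 (1.21), of Ccl12 (0.94), Ccl5 (0.88) and the scavenger chemokine Cxcl16 (1.07) were smaller, and Ccl2 remained at 15.83 and 15.84. Against this direction Cxcl2, which attracts neutrophils, rose from 15.51 and 15.47 to 17.13 and 17.04, and Ccl6 rose by 1.02. Of 19 CC chemokine genes 6 were lower and 1 higher (31.6% and 5.26%), and of 15 CXC and CX3C genes 4 were lower and 2 higher (26.7% and 13.3%). The shares were 12.8% and 12.1% over all symbols and 22.6% and 20.6% over expressed ones. Among 14 chemokine receptor genes, apart from Cxcr4 and Cx3cr1, 1 more was called, Ccrl2, a receptor that binds chemerin, which rose by 1.66.

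Cytokine and cytokine receptor genes changed in both directions, with more falls than rises. Tnf had log2 signals of 16.99 and 17.02 at 6 h and 14.42 and 14.37 at 17 h, and the TNF family ligands Tnfsf10 (TRAIL), Tnfsf13b (BAFF) and Ltb fell by 3.40, 2.62 and 2.40, while Tnfsf9 (4-1BB ligand) rose by 1.35. Il27, a subunit of the cytokine IL27, went from 12.21 and 12.22 to 7.80 and 7.62. The inflammasome sensor Nlrp3 fell by 2.65 from 12.81 and 12.83, and of 19 genes of the IL1 family and the inflammasome 7 were lower and 1 higher. Il18 fell by 1.11 and Il1a by 0.99. Of the helical cytokines, Il15 fell by 1.66 and Csf1, the macrophage growth factor, by 1.96, whereas Csf3, the granulocyte growth factor, rose from 12.40 and 12.26 to 13.93 and 13.94. Of 24 cytokine receptor genes 8 were lower and 5 higher, or 33.3% and 20.8%, beside 22.6% and 20.6% of expressed symbols. Il7r rose from 6.21 and 6.37 to 9.82 and 10.00, and Il10ra and Il6ra, the ligand-binding chains for IL10 and IL6, fell by 3.54 and 3.46.

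The genes that carry the LPS signal and those that restrain it changed on both sides, as expressed symbols did in general (22.6% lower and 20.6% higher). The adaptor Myd88 had log2 signals of 14.01 and 14.02 at 6 h and 11.14 and 10.80 at 17 h, and the bridging adaptor Tirap fell by 2.40, while Ticam2, which links TRIF to Toll-like receptor 4, rose from 8.30 and 8.42 to 10.82 and 10.88. The RNA receptor Tlr3 went from 12.84 and 12.84 to 8.90 and 8.92. In this list 8 of 23 genes were lower and 4 higher, and the LPS receptor genes Tlr4 and Cd14 were not called, with changes of 0.36 and 0.01. Of 20 genes of NF-kB subunits and inhibitors, 6 were lower and 5 higher, or 30% and 25%. The subunit gene Nfkb1 fell by 1.24 and the inhibitor genes Nfkbie and Nfkbia by 1.78 and 0.74, whereas Tnfaip3, which encodes the ubiquitin-editing inhibitor A20, rose by 1.64 from 11.31 and 11.39.

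Immediate early genes likewise divided, with 12 of 26 lower and 5 higher (46.2% and 19.2%, beside 22.6% and 20.6% of expressed symbols). Egr1 had log2 signals of 11.12 and 11.10 at 6 h and 6.42 and 6.89 at 17 h, and Fos of 9.80 and 9.97 at 6 h and 6.96 and 6.64 at 17 h, and the AP-1 member Fosl1 and the immediate early gene Ier2 fell by 3.40 and 3.21. In contrast, Jun went up from 7.80 and 7.80 to 11.10 and 10.94, and Atf3, a repressor of inflammatory genes that can pair with Jun, from 11.57 and 11.62 to 15.48 and 15.58. Fos and Jun, 2 partners in one dimer, thus moved in opposite directions, by -3.08 and 3.22 on the log2 scale. The dual specificity phosphatases, which switch off MAP kinases, also divided, with 4 of 11 lower and 5 higher (36.4% and 45.5%). Their median was 0.52, against -0.39 for the immediate early genes. Dusp6, which acts on ERK, fell from 11.68 and 11.70 to 7.43 and 7.27 and Dusp2 by 1.99, and Dusp1 and Dusp4 rose by 2.85 and 3.07, to 14.42 and 14.47 for Dusp1.

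The mediators that the study assayed by RT-qPCR were all measured on the arrays. Beside Tnf, Ccl2 and Atf3, Il1b fell from 16.37 and 16.31 to 15.37 and 15.33, and Ptgs2, the inducible cyclooxygenase, rose from 15.97 and 16.06 to 16.80 and 16.78. Socs1, which was called lower, was weak at both times, at 5.43 and 5.65 and 3.41 and 3.41. The inducible nitric oxide synthase Nos2 had log2 signals of 12.25 and 12.19 at 6 h and 12.67 and 12.86 at 17 h and Il6 of 12.38 and 12.35 at 6 h and 12.82 and 12.82 at 17 h. For both, each 17 h array was above each 6 h array, but the changes of 1.46-fold and 1.37-fold did not reach 1.5-fold, except that Nos2 passed (0.64) without replicate 1 of 17 h. The same held in the other direction for Il10 (-0.42) and Ppargc1b (-0.34). Gapdh, the reference gene of that assay, had 18.13 and 18.15 at 6 h and 18.25 and 18.26 at 17 h (change 0.12, limma adjusted p = 0.1963). In a list of 12 genes of common use as references, 1 was called higher (8.33%) and 2 lower (16.7%), with changes between -0.75 and 0.74.

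Transcripts of mitosis fell as a group. Of 49 genes of G2/M and mitosis, 44 were lower at 17 h and 0 higher, with a median of -1.86, and 26 stayed lower with the widened standard errors. Cdc20, which activates the anaphase-promoting complex, had log2 signals of 10.64 and 10.61 at 6 h and 5.90 and 6.00 at 17 h, and the mitotic kinase Plk1 had 13.28 and 13.24 at 6 h and 9.03 and 9.08 at 17 h. Cdk1, the kinase that starts mitosis, went from 11.86 and 11.75 to 8.49 and 8.43. The centromeric histone Cenpa fell by 3.58, the spindle midzone protein gene Prc1 by 3.42 and the kinesin Kif20a by 3.19. The 5 members that were not called, Smc2, Smc4, Ncapg, Incenp and Bub1, had changes between -0.34 and -0.27, all below 0.

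The replication-dependent histone genes, which are transcribed in S phase, fell as well, with 49 of 59 lower, 0 higher and a median of -1.51, and 19 stayed lower with the widened standard errors. By class, 15 of 16 H2A, 12 of 17 H2B, 9 of 10 H3, 10 of 10 H4 and 3 of 6 H1 genes were lower, with medians of -1.40, -1.92, -1.60, -1.49 and -0.75. Hist1h2bf had log2 signals of 13.47 and 13.52 at 6 h and 10.47 and 10.67 at 17 h and Hist1h3g of 14.77 and 14.72 at 6 h and 12.06 and 12.03 at 17 h. Histone genes of a class are nearly identical in sequence, so that their probe sets may read each other and the 49 are not independent measurements. Genes of DNA replication and nucleotide supply did not share this fall as a list, with 14 of 44 lower, 10 higher and a median of 0.04. These shares were 31.8% lower and 22.7% higher, beside 22.6% and 20.6% of expressed symbols. Fen1, the flap endonuclease, fell by 2.33, and the replication factor Mcm10 and the ribonucleotide reductase subunit Rrm2 fell by 1.67 and 1.34, while E2f1 rose from 4.89 and 5.13 to 6.87 and 6.93, Cdt1 rose by 1.18 and Mcm2 by 1.04. Of 21 genes of G1 cyclins, their kinases and inhibitors, 8 were lower and 1 higher (38.1% and 4.76%). Among them Cdkn1a, the inhibitor p21, fell from 16.07 and 16.08 to 14.43 and 14.40. Cdkn1a is also a target of p53. Of 25 such targets 8 rose and 4 fell (32% and 16%, beside 20.6% and 22.6% of expressed symbols). Gadd45a went from 8.01 and 8.34 to 12.17 and 12.18, beside the rise of Plk2.

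Genes of the integrated stress response rose together. In this response phosphorylation of eIF2alpha leads to translation of ATF4, which induces genes of amino acid supply. Of its 22 measured genes 18 were higher at 17 h and 0 lower, with a median of 1.31. Trib3, a pseudokinase induced by ATF4 and CHOP, had log2 signals of 7.21 and 7.11 at 6 h and 12.13 and 12.01 at 17 h, and Ddit3, which encodes CHOP, of 10.85 and 10.76 at 6 h and 13.84 and 13.88 at 17 h. Ppp1r15a, the phosphatase subunit GADD34 that reverses eIF2alpha phosphorylation, went from 4.74 and 4.82 to 8.81 and 8.60. Aldh1l2, an enzyme of mitochondrial folate metabolism, rose by 4.29, Cebpg by 2.80, the glutathione-degrading enzyme Chac1 by 2.12 and Atf4 itself by 1.39. With the widened standard errors 7 of the 18 stayed higher.

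Of 19 aminoacyl-tRNA synthetase genes, which load tRNAs with amino acids, 10 rose and 1 fell, with a median of 0.68, and 2 stayed higher with the widened standard errors. The cysteinyl enzyme Cars went from 11.63 and 11.68 to 13.55 and 13.50 and the seryl enzyme Sars from 14.01 and 13.96 to 15.80 and 15.75. The exception was Farsa, the alpha subunit of the phenylalanyl enzyme, which fell by 1.48, while the beta subunit Farsb rose by 0.93. The folding genes of the endoplasmic reticulum did not rise as a list, with 4 of 22 higher, 2 lower and a median of 0.07. Within it Ern1, the stress sensor IRE1alpha, rose from 9.0 and 8.88 to 12.44 and 12.35, and Syvn1, the ubiquitin ligase HRD1, fell from 10.70 and 10.62 to 8.30 and 8.29, whereas Hspa5, which encodes the chaperone BiP, had a change of -0.10. Of 16 heat shock protein genes 5 rose and 1 fell (31.2% and 6.25%, beside 20.6% and 22.6% of expressed symbols). Hspa1a, an inducible HSP70 that is nearly identical to Hspa1b, went from 6.05 and 6.18 to 9.25 and 9.36.

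Genes of lysosomes and autophagy rose more often than they fell. Of 41 lysosomal genes 19 were higher and 5 lower (46.3% and 12.2%), with a median of 0.55. Of 26 autophagy genes 15 were higher and 2 lower (57.7% and 7.69%), with a median of 0.70. Expressed symbols had shares of 20.6% and 22.6%. With the widened standard errors 3 lysosomal and 5 autophagy genes stayed higher and 0 of either list lower. Gla, alpha-galactosidase A, had log2 signals of 11.98 and 11.93 at 6 h and 14.90 and 14.88 at 17 h, and Mcoln1, the lysosomal calcium channel, of 10.40 and 10.36 at 6 h and 12.53 and 12.51 at 17 h. The proton pump subunit Atp6v1a rose by 2.04 and the protease cathepsin L (Ctsl) by 1.5, while cathepsin H (Ctsh) fell by 1.39. Nbr1, an autophagy receptor, went from 9.89 and 9.93 to 12.59 and 12.61, and the receptor Sqstm1 (p62) from 14.73 and 14.73 to 16.47 and 16.37. Atg7, the E1-like enzyme of LC3 lipidation, rose by 1.91 and Atg14, a subunit of the autophagy PI3 kinase complex, by 2.27. Atg16l1 and Gabarapl2 were the 2 that fell, by 0.83 and 0.79.

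**Figure D3:**
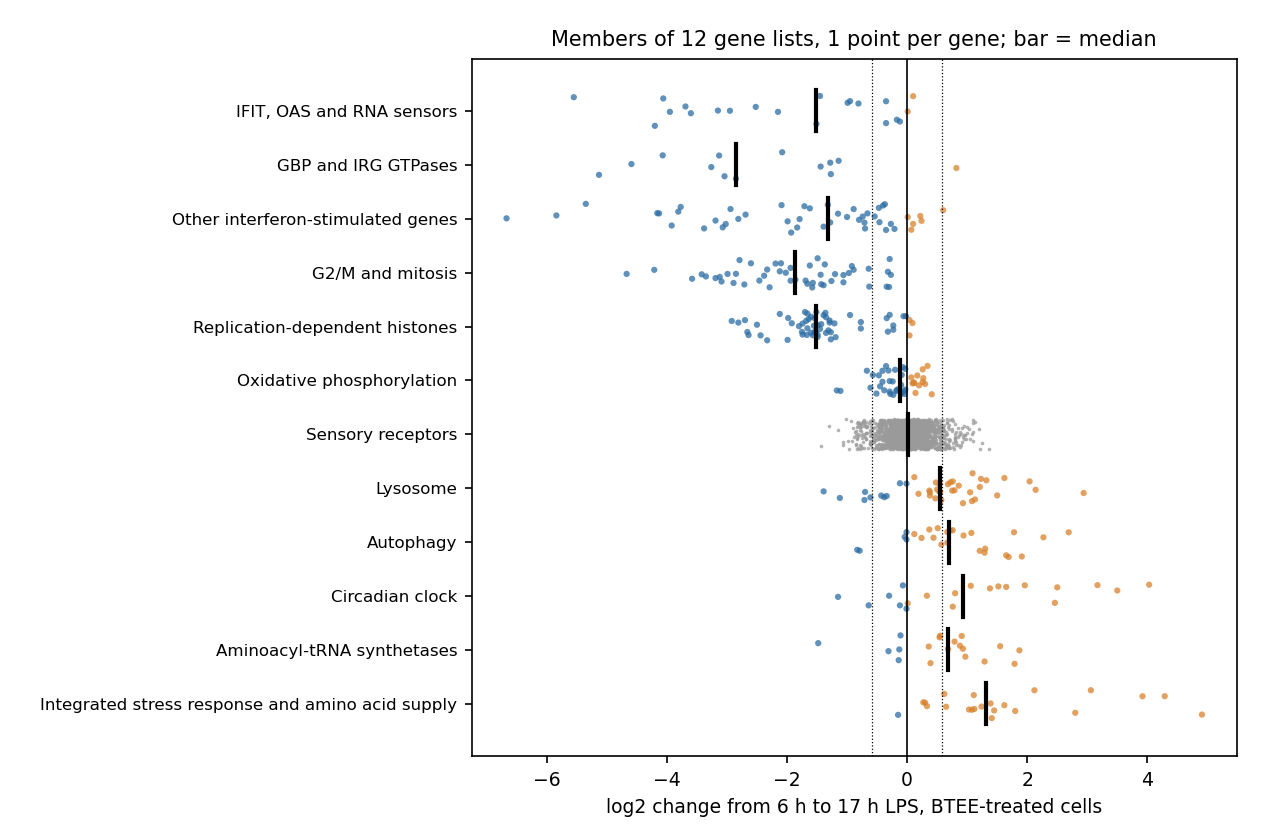
Log2 change from 6 h to 17 h of LPS in BTEE-treated cells for every measured member of 12 gene lists (points; blue below 0, orange above 0, grey for sensory receptors), with the median of each list as a black bar and dotted lines at 1.5-fold. Interferon, mitosis and histone genes lie to the left with medians between -2.85 and -1.32, and integrated stress response genes to the right with a median of 1.31.

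Clock genes also rose more often than they fell, with 12 of 20 higher, 2 lower and a median of 0.93. The shares were 60% and 10%, beside 20.6% and 22.6% of expressed symbols, and 6 stayed higher with the widened standard errors. Bhlhe41 and Bhlhe40, repressors of the clock that are also known as DEC2 and DEC1, had log2 signals of 9.83 and 9.83 at 6 h and 13.89 and 13.82 at 17 h and of 10.75 and 10.66 at 6 h and 13.81 and 13.93 at 17 h. Nr1d2, the nuclear receptor REV-ERBbeta, went from 7.09 and 6.92 to 10.46 and 10.54, Ciart rose by 2.46 and the nuclear receptor Rora by 2.50. Cry1 and Per1, of the repressor complex, rose by 1.38 and 1.06, and Clock by 0.80, while its partner Arntl (BMAL1) had a change of -0.07. Nocturnin (Noct) fell by 1.15. With 2 times no rhythm can be read from these values.

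Metabolic genes changed mostly one by one. Of 29 glycolysis and HIF1 target genes 8 rose and 3 fell (27.6% and 10.3%, beside 20.6% and 22.6% of expressed symbols). The vascular growth factor Vegfa went from 9.42 and 9.57 to 11.99 and 12.11, while hexokinase 3 (Hk3) rose by 2.03. Arg2, the mitochondrial arginase, had log2 signals of 6.79 and 6.83 at 6 h and 9.98 and 9.98 at 17 h. Fabp5, a fatty acid binding protein, went from 10.54 and 10.66 to 13.50 and 13.56, and fatty acid synthase (Fasn) from 11.33 and 11.37 to 9.02 and 8.64. Of 20 genes of prostaglandin and leukotriene synthesis 8 rose and 5 fell (40% and 25%). The prostacyclin receptor Ptgir went from 5.69 and 5.16 to 9.0 and 9.04, whereas 5-lipoxygenase (Alox5) fell by 1.9. Ribosome biogenesis genes tended downwards, with 14 of 40 lower and 2 higher (35% and 5%). The 44 genes of oxidative phosphorylation changed little, with 4 lower, 0 higher and a median of -0.12, and Ndufb8 and Atp5j, which fell by 1.17 and 1.11, had the largest changes among them.

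Of 27 surface and identity genes of macrophages 9 were higher and 2 lower, with a median of 0.06. These shares were 33.3% and 7.41%, beside 20.6% and 22.6% of expressed symbols, and 11 of the 27 are also in other lists. Adgre1, a standard surface marker of mouse macrophages, had log2 signals of 11.07 and 11.05 at 6 h and 13.15 and 13.15 at 17 h, the integrin chain Itgam (CD11b) went from 13.67 and 13.72 to 15.34 and 15.38 and the Fc receptor Fcgr3 rose by 2.00. Trem2, a lipid-sensing receptor, fell from 12.46 and 12.56 to 10.31 and 10.15. The C-type lectin Clec4n (dectin-2) went from 10.45 and 10.55 to 14.42 and 14.48. Among costimulatory and adhesion genes, Cd83 and Cd274 (PD-L1) rose by 2.98 and 2.25, and Cd40 and the adhesion molecule Icam1 fell by 2.40 and 4.17, the latter from 12.92 and 12.80 to 8.72 and 8.66. The protease inhibitor Serpinb2 went from 7.94 and 8.10 to 11.41 and 11.43, and the gelatinase Mmp9 rose by 2.10. Of 38 proteasome genes 4 were higher and 3 lower, of 68 cytosolic ribosomal protein genes 3 and 3, and of 25 genes of the TCA cycle 4 and 1, beside the 20.6% and 22.6% of expressed symbols.

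The same comparison was made in control cells, on 4 arrays whose means do not enter that in BTEE-treated cells. Both comparisons came from the same fit and used its common estimate of the spread, so that their calls are not independent. The changes from 6 h to 17 h correlated across the 21154 symbols with r = 0.780 and, across the 9699 symbols with a signal of at least 6, with r = 0.878, which describes these arrays, since genes are not independent replicates. Of 495 symbols that changed by more than 4-fold with BTEE, 493 were called in the same direction in control cells. In control cells 2976 of the 21154 symbols were called higher and 3257 lower. Of all symbols called with BTEE, 59.7% of the higher and 67.4% of the lower ones were also called in control cells, and these made up 51.4% and 56.1% of those called there. A total of 84 symbols were called in opposite directions, 30 of them with a signal of at least 6.

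The difference between the 2 time changes was tested directly. It was called higher with BTEE for 2213 symbols (10.5%) and lower for 2050 (9.69%). Of the sensory receptor genes 15.6% were called in this test, beside 20.2% of all symbols, and with their excess spread added to the standard errors limma called 0 symbols (561 at an unadjusted p under 0.05 and a ratio above 1.5). The differences are therefore given as measured values of these 8 arrays. Among symbols with a signal of at least 6 that do not name predicted genes, the largest with BTEE above control was that of Lbr, the lamin B receptor, which had 11.67 and 11.77 at 6 h and 11.64 and 11.70 at 17 h with BTEE, and 13.55 and 13.57 at 6 h and 10.99 and 11.05 at 17 h in control cells, a difference of 2.49 (SE 0.10, limma adjusted p = 8.52e-04). Its 4 BTEE arrays thus lay between the control arrays of 6 h and those of 17 h. Adap2 and Tmem141 showed the same form, with BTEE changes of -0.09 and -0.04 against -2.30 and -2.15 in control cells, and Crip1 and Ifit1bl1 fell in both but by 2.10 and 2.15 less with BTEE. Kat2b, a histone acetyltransferase, changed by 0.27 with BTEE and by -1.81 without it.

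On the other side stood genes whose change was lower with BTEE. The autophagy-related gene Atg16l2 had 9.02 and 8.97 at 6 h and 9.19 and 9.29 at 17 h with BTEE and changed by 0.24 against 2.32 in control cells. The neutrophil chemokine Cxcl3 changed by 0.23 against 2.18, and the integrin chain Itgb7 by 0.46 against 2.44. Zfp664 and Pank1, a pantothenate kinase of coenzyme A synthesis, changed by -0.94 and -0.65 with BTEE and by 0.98 and 1.24 without it. Trim59 fell by 1.72 with BTEE and changed by 0.14 in control cells. Of these, Pank1 was no longer called as lower with BTEE when any 1 of the 4 BTEE arrays was left out.

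**Figure D4:**
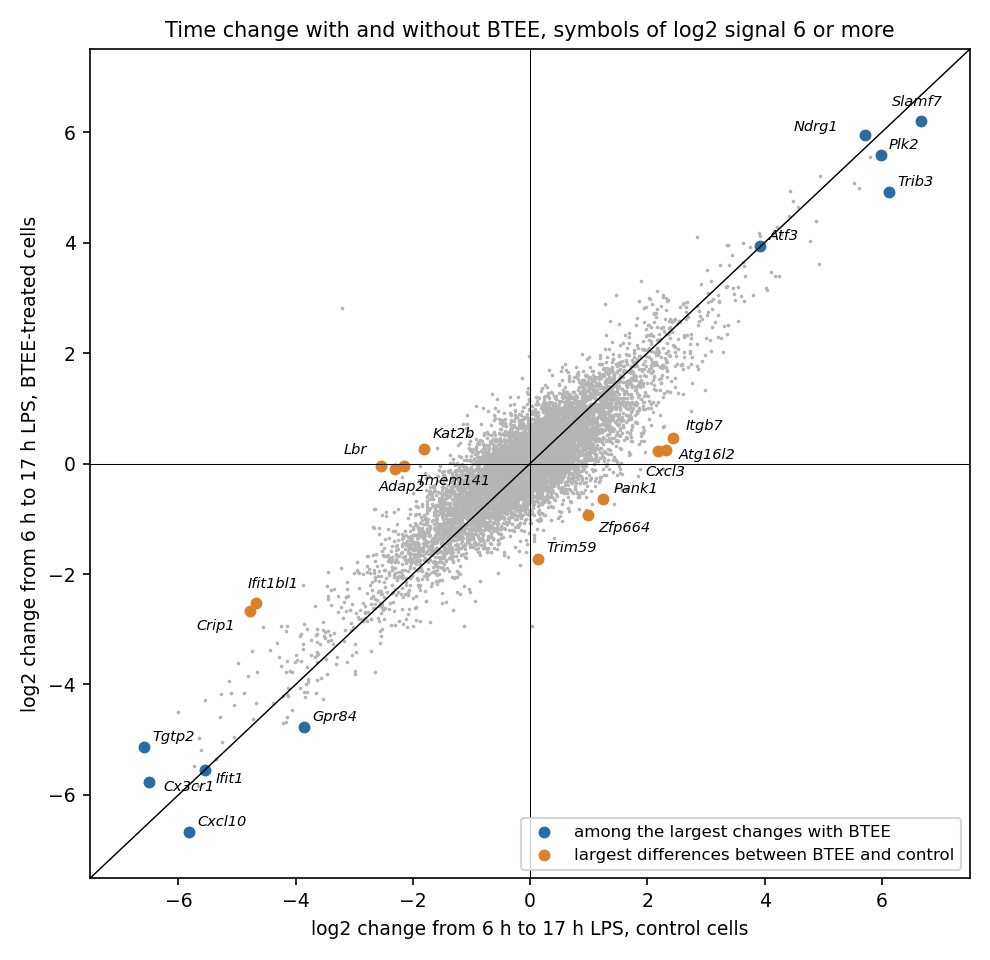
Log2 change from 6 h to 17 h of LPS in BTEE-treated cells (y axis) against that in control cells (x axis) for the 9699 symbols with a mean signal of at least 6 in the higher BTEE group, with the line of equal change. Several genes with large changes are marked in blue, of which Tgtp2 (difference 1.47) and Trib3 (-1.21) lie farthest from the line, and the 12 genes with the largest differences (orange) lie farther from it, such as Lbr at -2.54 in control cells and -0.05 with BTEE. The single grey point at -3.21 and 2.82 is the predicted gene Gm17482.

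**Figure D5:**
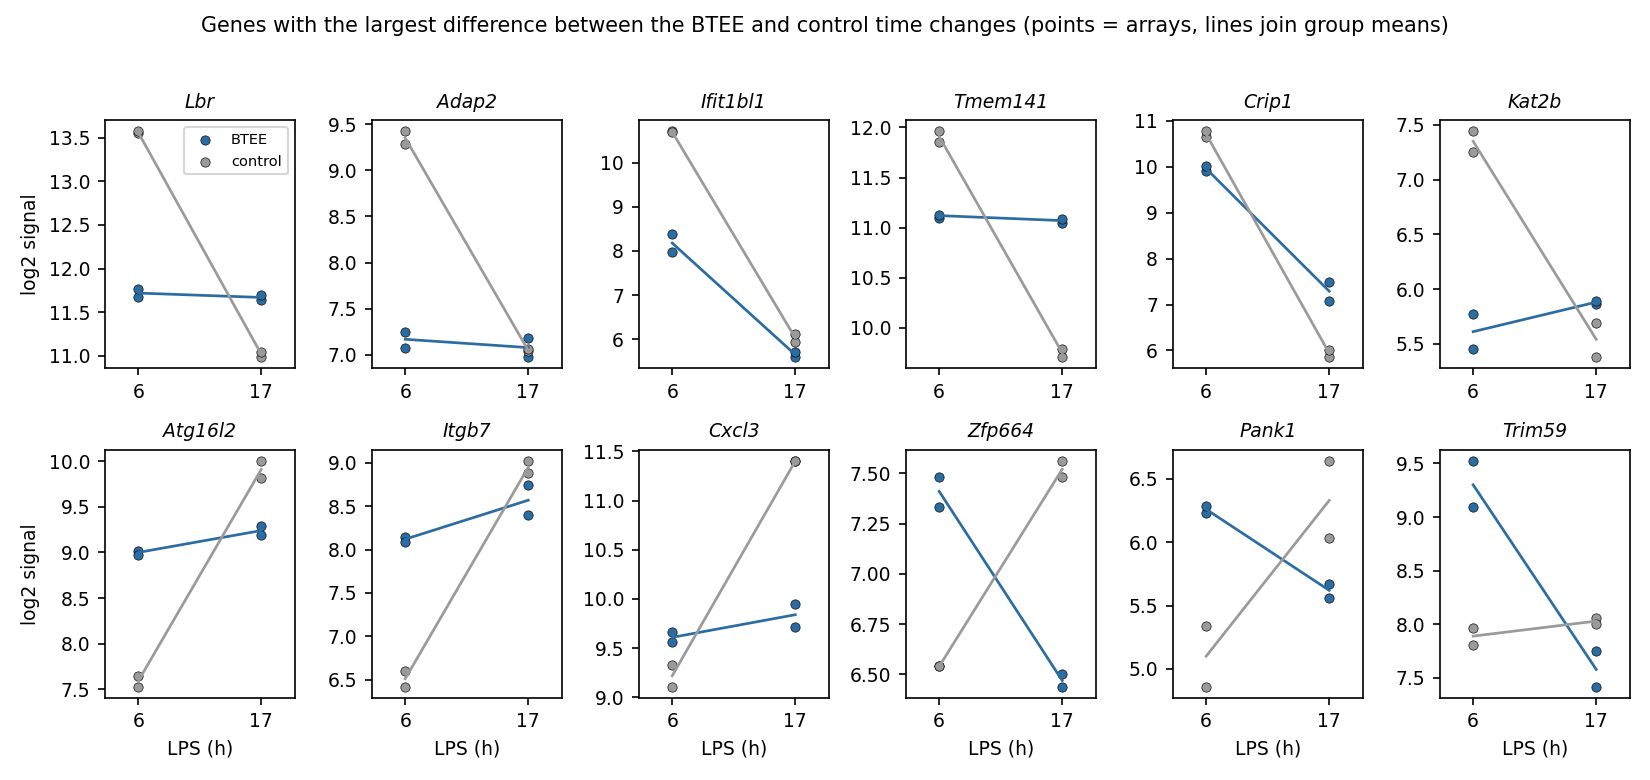
Log2 signal of each array at 6 h and 17 h of LPS for the 12 genes with the largest difference between the time changes of BTEE-treated (blue) and control cells (grey), with lines that join the group means of 2 arrays. The upper 6 genes fell less, or did not fall, with BTEE, and the lower 6 rose less than in control cells or fell. At 6 h the BTEE arrays of the upper 6 genes lay below the control arrays and those of the lower 6 above them.

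Over all symbols the difference was called higher for 10.5% and lower for 9.69%, and 15.6% of sensory receptor genes were called. With their excess spread added 0 symbols were called, so that the list counts describe these 8 arrays only. The median change of oxidative phosphorylation genes was -0.12 with BTEE and -0.56 in control cells, and the difference was called higher for 14 of 44 and lower for 0. Mitochondrial ribosomal protein genes had medians of -0.15 and -0.47, with 17 of 74 differences higher and 1 lower, and DNA replication genes medians of 0.04 and -0.24, with 10 of 44 higher and 1 lower. Endoplasmic reticulum folding genes had medians of 0.07 with BTEE and 0.48 in control cells, with 1 of 22 differences higher and 8 lower. The interferon-inducible GTPases had the same median of -2.85 in both. Of these genes 6 of 13 fell less with BTEE, among them Tgtp2 (difference 1.47), Gbp2 (1.12) and Igtp (0.70). The 6 h means of Tgtp2, Gbp2 and Igtp were lower with BTEE (10.13, 13.29 and 12.86) than without it (11.88, 14.77 and 13.57). By 17 h none of them exceeded its control mean (5.00, 10.25 and 8.27 beside 5.28, 10.60 and 8.27). For the mitosis and integrated stress response lists the medians with BTEE and without it were -1.86 and -1.77 for mitosis, and 1.31 and 1.58 for the stress response.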

How the data were processed

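RNA of 8 RAW264 samples was hybridised to Clariom S mouse arrays, and the authors deposited SST-RMA log2 signals per array and the log2 means of each group, the latter used only as a check. The deposited fold changes and p-values of the authors' own comparisons were not used. Of 22206 probe sets, the brightest per symbol was kept, which gave 21154 symbols. Group means were fitted to all 8 arrays with limma 3.58.1 (R 4.3.3), p-values were adjusted by Benjamini-Hochberg over all symbols, and calls needed an adjusted p under 0.05 and a fold above 1.5. The difference between the BTEE and control time changes was a contrast of the same fit. The number of arrays, 2 per group, limits the precision. Coordinates are those of RefSeq on GRCm38.

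The comparison, the gene lists and their members were chosen with earlier results of these data known. Named genes were the 15 largest rises and falls with a signal of at least 6, up to 6 called members per list, the mediators assayed by RT-qPCR with Gapdh, and the 6 largest differences per side. Predicted genes were left out of the rises and falls and of the differences. Marker genes, Gbp8, Bst2, Oas1a, Tlr4, Cd14, Nfkbia, Smc2, Smc4, Ncapg, Incenp, Bub1, Cdt1, Mcm2, Atf4, Farsb, Hspa5, Atg16l1, Gabarapl2, Cry1, Per1, Clock, Arntl, Noct and Gm17482 were outside this rule and chosen after their values were seen. Alternatives covered normalization, filters, thresholds, the prior, the replicate block and leaving out each array. Some genes of these lists are not reported here.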

Additional observations from a re-analysis of the deposited data

Results flagged for a closer look

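For 63 of the 200 genes named here the change from 6 h to 17 h with BTEE differed from that in control cells by limma's test of the difference itself, with an adjusted p of at most 0.0214 and a ratio above 1.5. The 6 largest differences per side and Gm17482 were named because of this difference, so that the count says nothing about the named genes as a set. Values below are the BTEE change minus the control change in log2 units, and all of them rest on 2 arrays per group. Of all symbols 20.2% passed the same test. Of the sensory receptor genes 15.6% passed it, and no symbol passed it once their excess spread was added to the standard errors.

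Among antiviral and interferon-inducible genes, the difference was above 0 for Ifit1bl1 (2.15), Tgtp2 (1.47), Gbp2 (1.12), Gbp3 (0.80), Igtp (0.70), Mx1 (0.72), Tnfsf10 (1.35), Tlr3 (1.21) and Cxcl11 (0.96), all of which fell less with BTEE, and below 0 for Cxcl10 (-0.85), which fell more. Among cytokine and chemokine genes it was above 0 for Ccl17 (1.60), Il27 (1.5), Il15 (1.02), Il18 (0.93), Il10 (0.93) and Cx3cr1 (0.73), and below 0 for Cxcl3 (-1.96) and Il7r (-1.31). Nos2, the nitric oxide synthase gene, had a difference of 0.65, with a change of 0.55 with BTEE and -0.10 in control cells.

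Among surface and signalling genes the values above 0 were those of Trem2 (1.06), Fcgr1 (0.86), Clec4n (0.59), Cd40 (0.70), Cd83 (0.94), Pdcd1 (0.69), Adap2 (2.21), Tirap (1.05), Nfkbie (1.18), Dusp2 (0.74) and Fos (0.82). Those below 0 were of Itgb7 (-1.99), Gpr84 (-0.92), Ticam2 (-0.81) and Fosl1 (-0.68).

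Stress, autophagy and lysosome genes lay on both sides, with Cebpg (0.63), Atg7 (0.72), Mcoln1 (0.60) and Ctsh (0.86) above 0, and Trib3 (-1.21), Syvn1 (-1.18), Ern1 (-0.65), Farsa (-0.69), Atg16l2 (-2.08), Sqstm1 (-0.65), Gla (-0.71) and Klhl24 (-0.63) below 0. Of the clock genes, Noct (1.53) was above 0 and Bhlhe40 (-0.85), Bhlhe41 (-0.74) and Rora (-0.88) below it. The remaining genes above 0 were Lbr (2.49), Tmem141 (2.11), Crip1 (2.10), Kat2b (2.08), Alox5 (1.33), E2f1 (0.92) and Ncapg (0.72), and those below 0 were Zfp664 (-1.92), Pank1 (-1.88), Trim59 (-1.86), Hist1h2bf (-0.61) and Vegfa (-0.59). Gm17482, a predicted gene singled out after its values were seen, had log2 signals of 5.53 and 5.33 at 6 h and 8.66 and 7.83 at 17 h with BTEE and 6.64 and 6.28 at 6 h and 2.94 and 3.57 at 17 h in control cells, and the largest difference of the symbols with a signal of at least 6, 6.02 (limma adjusted p = 0.0011).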

How the results depend on the processing

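The counts of 2563 higher and 2714 lower symbols stayed within 1.5 times under other normalizations (2682 and 2577 with quantile normalization, 2503 and 2780 with median centring), the signal filter, the prior, the 4 BTEE arrays alone, the mean of all probe sets and the p without adjustment. Leaving out each array gave 2540 to 2613 higher and 2693 to 2750 lower symbols. The threshold set the counts, with 4985 and 5081 at an adjusted p without a fold, 1050 and 1235 above 2-fold, 1271 and 1419 by the treat test against 1.5-fold, and 328 and 431 with the excess spread of sensory receptor genes added to the standard errors, which was chosen after seeing the data. For the difference between time changes, the 4263 symbols became 6651, 1101, 317 and 0 (561 at an unadjusted p) under these 4 settings in turn and 2195 with the signal filter, where fewer symbols are tested, and leaving out each array gave 3633 to 4002. The replicate block gave 2556 higher and 2716 lower symbols and 4185 differences. The deviations of same-numbered arrays from their group means correlated by -0.001 to 0.020. This cannot tell whether same-numbered arrays shared a culture or a batch, which the labels do not say. Of the 11 list medians of at least 0.5 in size, 0 changed sign under any alternative. Among named genes, Pank1 lost its call with quantile normalization (-0.60), with the block (-0.65) and without any 1 BTEE array (-0.70 to -0.59), and Itgb7 gained one without replicate 2 of BTEE at 17 h (0.63), as did Nos2 without replicate 1 of BTEE at 17 h (0.64). The treat test lost 8 of the 170 called genes, namely Atg16l1, Bst2, Clock, Gabarapl2, Gbp8, Nfkbia, Pank1 and Ptgs2. Signals below about 6 are near the background of the array.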
